A study of Drosophila melanogaster with 9 samples.

Results

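In *Drosophila* testes, 45 protein-coding genes had low RNA levels when the kinase gene *SRPK* was knocked down and were at or above the control level when the splicing factor gene *U2af38* was knocked down. They were chosen from the measured values themselves, on the mean CPM of each genotype, where CPM is the number of fragments of a gene per 1000000 fragments counted in its library. A gene was taken if it lay outside chromosomes 4 and Y, had a mean control CPM of at least 2, a mean in *SRPK* RNAi of at most 50% of control and a mean in *U2af38* RNAi no lower than control, with *SRPK* itself left out. Of the 17575 genes counted, 9516 met the conditions on type, chromosome and control level. The *SRPK* condition was met by 207 of these and the *U2af38* condition by 6244, and 45 genes met both. Since all 9 libraries entered this choice, the levels of the 45 genes below are a description and carry no test.

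Ribosome-depleted total RNA came from testes of males that were control or carried *U2af38* RNAi or *SRPK* RNAi, aged 1 to 3 days, in 3 biological replicates per genotype, each run on 2 lanes that were summed. Each replicate was a pool of testes. RNAi was driven by *bam-GAL4*, which acts in the germline from late spermatogonia into spermatocytes, so the somatic cells of the testis and the germline stem cells were not targeted by this driver. Controls were the parental *bam-GAL4* stock or siblings from the cross, and the labels do not say which, nor which of the RNAi lines available for each gene was sequenced. Replicate means a separately labelled biological sample, and nothing more is said of its origin.

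SRPK is a kinase that phosphorylates serine and arginine rich stretches of splicing factors, the SR proteins among them, and so affects where they are in the cell and what they do. U2af38 is the small subunit of the U2AF complex, which recognises the 3′ splice site at an early step of spliceosome assembly. In the testis, germline cells divide as spermatogonia, grow and transcribe for a long time as spermatocytes, and turn into spermatids after meiosis. A bulk testis library therefore mixes cell stages, and fewer cells of a type cannot be told apart from less RNA per cell. The paper reports male sterility in both knockdowns, with an arrest of germ cells at the spermatocyte stage in *U2af38* RNAi. In *SRPK* RNAi it describes germ cells of normal appearance throughout development, but sperm that did not move or leave the testis. The knockdowns may thus differ in cell content, and its part in the levels below was not tested.

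The targeted genes followed the labels. *SRPK* had 236, 209 and 229 CPM in control, 65.2, 58.5 and 60.0 in *SRPK* RNAi and 804, 764 and 858 in *U2af38* RNAi, so 27.2% of the control level was left in its own knockdown. *U2af38* had control values of 32.4, 35.6 and 33.5 CPM against 3.24, 5.68 and 4.04 in *U2af38* RNAi, with 12.8% left. Libraries held 18497748 to 30002574 counted fragments, and a count of 3 fragments corresponded to 0.1 to 0.162 CPM. The median gene tested had a log2 ratio over control of 0.71 in *U2af38* RNAi and 0.12 in *SRPK* RNAi on library-size CPM, against 0.08 and 0.01 on CPM scaled by TMM, edgeR's normalisation factors. The condition on *U2af38* RNAi was therefore set on a scale on which most genes lay above control.

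All 45 genes passed the filter on low counts. In *SRPK* RNAi they kept between 4.75% (*CG9294*) and 49.6% (*Hrb98DE*) of their control mean, with a median of 38.3%. Only 5 genes kept less than 20%, another 4 kept between 20% and 30%, 15 between 30% and 40%, and 21 at least 40%. Every *SRPK* RNAi library lay below every control library for 45 of the 45, where 18.6% of all tested genes had that pattern. All 45 were also called lower by edgeR's quasi-likelihood test at an adjusted p of 0.05, against 21.1% of the tested genes. The choice of genes with low *SRPK* RNAi means favoured both counts, and nothing is read from them.

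**Figure D1:**
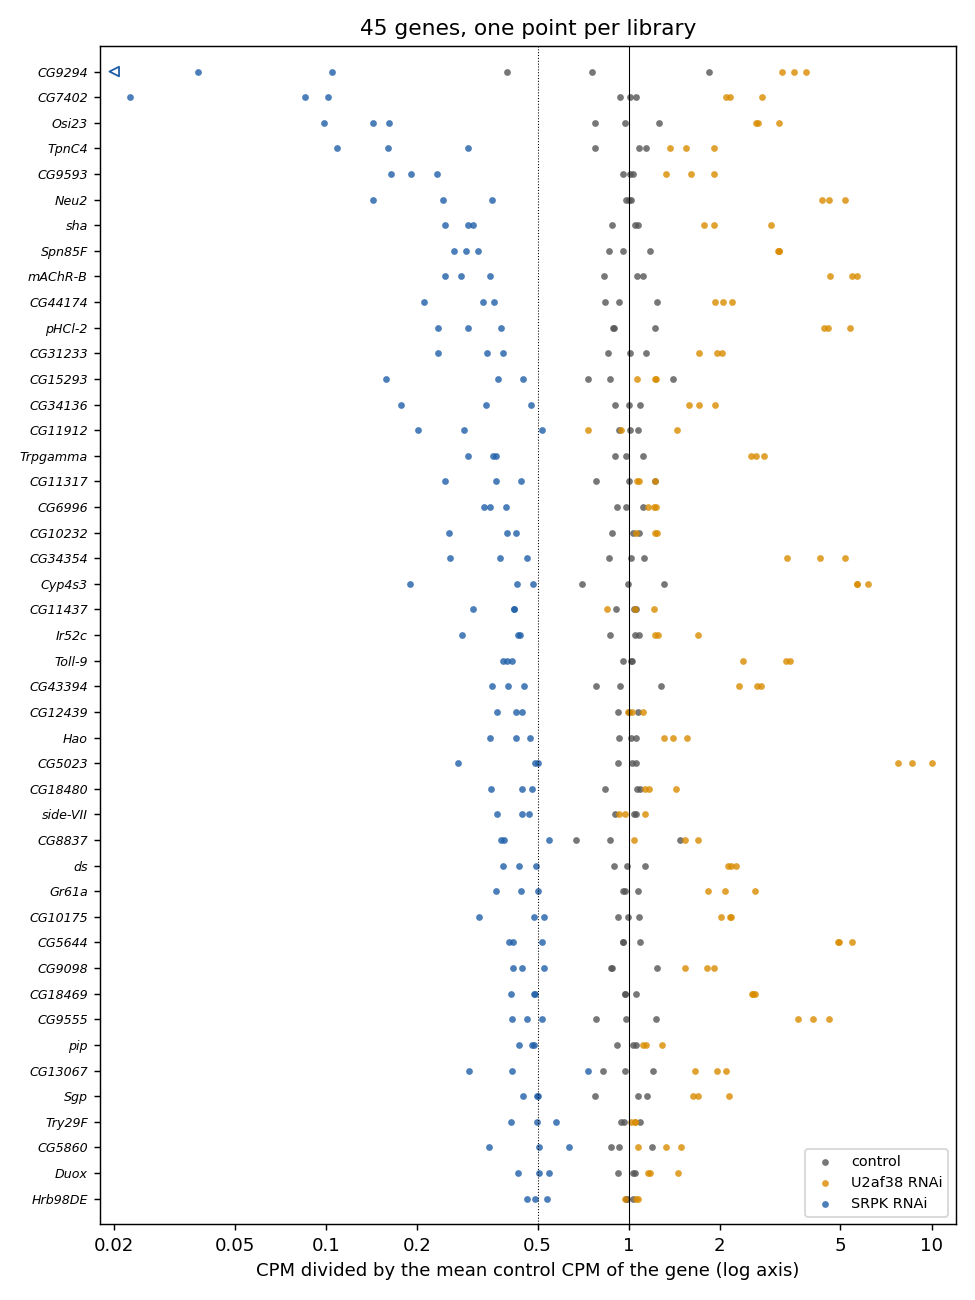
CPM of each of the 45 genes in each of the 9 libraries, divided by the gene's mean control CPM, on a log axis, with one row per gene and one point per library coloured by genotype. The *SRPK* RNAi points of every gene lie left of its control points, from *CG9294* with 4.75% of control left to *Hrb98DE* with 49.6%, and the open triangle at the left edge marks the *SRPK* RNAi library in which *CG9294* had 0 fragments.

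Most of the genes were weakly expressed in control testes. The median control mean was 5.30 CPM, 34 genes lay under 10 CPM, and 21 under 5. A single gene stood far above the others. *Hrb98DE* had 472 CPM of the 785 CPM that the 45 genes had together in control, and the next, *CG10175*, had 25.8. Per kilobase of exon, *Hrb98DE* was at 172 CPM, the short gene *CG18469* at 48.0, *CG12439* at 24.3, and the others between 0.47 (*CG34354*) and 6.85 (*CG44174*). Replicates varied with a median coefficient of variation of 10.8% in control, 10.1% in *U2af38* RNAi and 17.4% in *SRPK* RNAi.

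**Figure D2:**
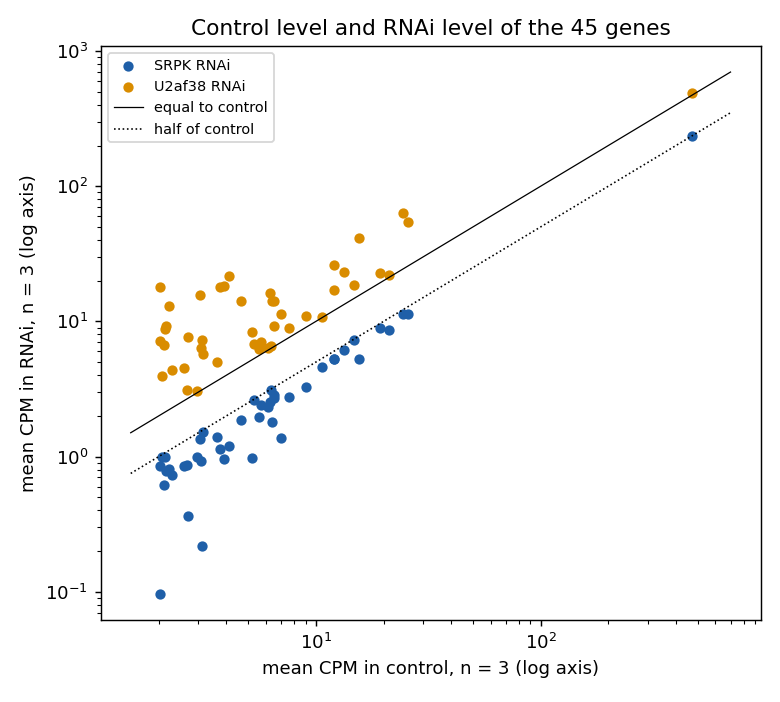
Mean CPM of the 45 genes in *SRPK* RNAi and in *U2af38* RNAi against mean CPM in control, 3 libraries each, on log axes, with a solid line at equality and a dotted line at 50% of control. *Hrb98DE* lies at 472 CPM in control, far to the right of the next gene at 25.8, and the *U2af38* RNAi points spread from 1.01 to 8.78 times control.

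The one named member known as a splicing regulator was *Hrb98DE* (FBgn0001215, chromosome 3R of dm6, 28599834 to 28605777), which encodes an hnRNP of the A/B type, a nuclear RNA-binding protein that takes part in splice site choice. Its control libraries had 462, 467 and 487 CPM (mean 472 ± 13.5, SD, n = 3), at 498, 459 and 505 in *U2af38* RNAi (487 ± 24.3) and at 254, 232 and 217 in *SRPK* RNAi (234 ± 18.7). The *SRPK* RNAi libraries lay together below the control libraries, while the *U2af38* RNAi libraries overlapped control. Its place among the 45 was narrow on both conditions, with 49.6% left in *SRPK* RNAi and 1.03 times control in *U2af38* RNAi. It fell outside the rule without control replicate 3 or without *SRPK* RNAi replicate 3. After TMM scaling its *U2af38* RNAi mean was 0.663 times control.

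Other hnRNP genes were looked up after the values of *Hrb98DE* had been seen. In *SRPK* RNAi, *Hrb87F*, a close relative, was at -0.07 ± 0.07 (log2 fold change ± standard error), with a Benjamini-Hochberg adjusted p of 0.418 in edgeR's quasi-likelihood model. Its control libraries had 112, 110 and 102 CPM and its *SRPK* RNAi libraries 123, 117 and 94.9, so the groups overlapped. *Hrb27C* (-0.09, adjusted p = 0.278), *sqd* (0.08, 0.252), *Rb97D* (-0.02, 0.871) and *glo* (0.13, 0.0721) did not pass the same edgeR test either. In *U2af38* RNAi the 5 genes were called higher, with log2 fold changes of 0.31 for *Hrb27C* to 0.71 for *Hrb87F*, where *Hrb98DE* had -0.59 on the same scale. The difference between *Hrb98DE* and these genes was not itself tested.

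**Figure D3:**
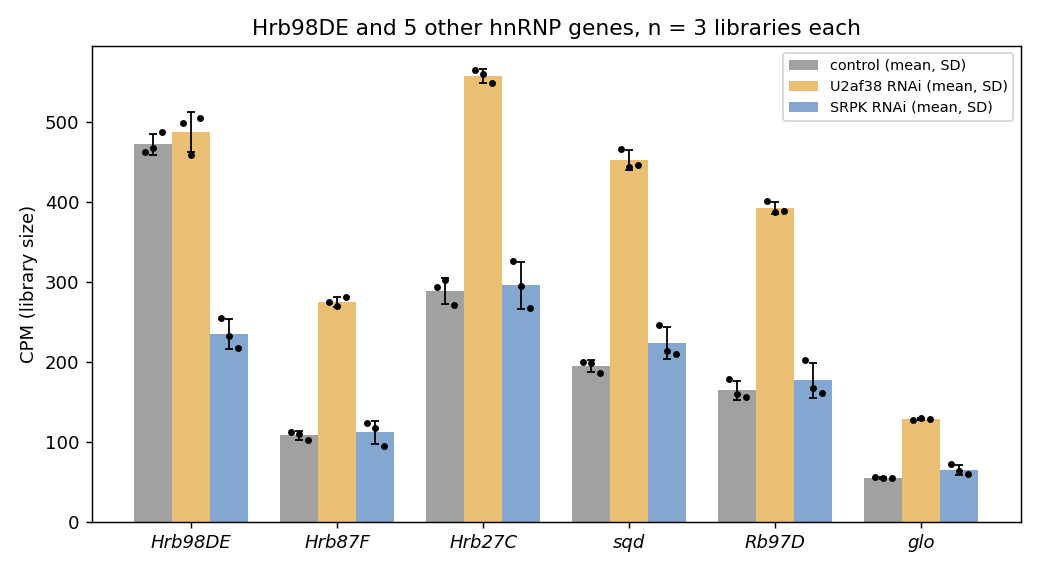
CPM of *Hrb98DE* and 5 other hnRNP genes in control, *U2af38* RNAi and *SRPK* RNAi, with bars for means, error bars for the SD and points for the 3 libraries of each genotype. *Hrb98DE* goes from 472 CPM in control to 234 in *SRPK* RNAi, while *Hrb87F*, *Hrb27C* and *Rb97D* in *SRPK* RNAi overlap their control libraries. For *sqd* and *glo*, which edgeR did not call in *SRPK* RNAi, every *SRPK* RNAi library lies above every control library on this scale.

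Several named members code for receptors, channels and adhesion molecules of the cell surface. *mAChR-B* encodes a muscarinic acetylcholine receptor, a receptor that signals through G proteins. It had 4.37, 3.40 and 4.57 CPM in control, 22.4, 19 and 23.4 with *U2af38* RNAi and 1.15, 1.02 and 1.43 with *SRPK* RNAi. The genotypes did not overlap, with a *U2af38* RNAi mean 5.25 times that of control and 29.2% left in *SRPK* RNAi. *pHCl-2*, a chloride channel opened by changes in pH, had the same order, with 3.33, 4.59 and 3.37 CPM in control, 17.1, 16.6 and 20.3 with *U2af38* RNAi and 1.42, 0.880 and 1.11 with *SRPK* RNAi. *Trpgamma*, a cation channel of the TRP family, was more abundant, at 17.3, 14 and 15.2 CPM in control, 40.7, 39.2 and 43.4 with *U2af38* RNAi and 5.51, 5.63 and 4.57 with *SRPK* RNAi. Its *SRPK* RNAi libraries were close to each other and kept 33.8% of control.

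Among receptors, *Toll-9* codes for a member of the Toll family, whose founding member acts in embryonic patterning and immunity. It stood at 4.72, 4.45 and 4.77 CPM in control, 15.8, 11.1 and 15.3 with *U2af38* RNAi and 1.84, 1.79 and 1.91 with *SRPK* RNAi, with little spread in control and in *SRPK* RNAi. *Gr61a*, of the gustatory receptor family and known for sugar sensing, had 6.32, 6.22 and 7.0 CPM in control, 13.5, 11.9 and 17 with *U2af38* RNAi and 2.87, 3.27 and 2.38 with *SRPK* RNAi. *Ir52c*, of the ionotropic receptor family of chemosensory channels, had 3.81, 3.16 and 3.93 CPM in control, 4.43, 4.52 and 6.15 with *U2af38* RNAi and 1.57, 1.02 and 1.59 with *SRPK* RNAi. All 3 receptor genes had libraries of the 3 genotypes that did not overlap on library-size CPM. Of all tested genes, 64.7% had every *U2af38* RNAi library above control and 18.6% every *SRPK* RNAi library below it. The choice of genes also favoured such patterns, so nothing is read from them. *Ir52c* was only 1.39 times control in *U2af38* RNAi, and 0.891 times with TMM factors.

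The adhesion molecule *ds* (*dachsous*) is a very large cadherin that binds Fat on neighbouring cells and takes part in planar polarity and growth control. It had 11.8, 10.7 and 13.6 CPM in control, 25.6, 27.1 and 26.1 with *U2af38* RNAi and 5.93, 4.61 and 5.20 with *SRPK* RNAi. *side-VII*, of the *sidestep* family of immunoglobulin domain proteins, had 11.3, 9.66 and 11.1 CPM in control, 9.95, 10.4 and 12.1 with *U2af38* RNAi and 4.75, 3.94 and 5.0 with *SRPK* RNAi. Both kept between 40% and 50% of control in *SRPK* RNAi. In *U2af38* RNAi they differed, since *ds* lay above all control libraries while *side-VII* overlapped them at 1.01 times control, the smallest ratio of the 45. *side-VII* left the rule without control replicate 2 or without *U2af38* RNAi replicate 3.

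Other members encode enzymes or their inhibitors. *pip* (*pipe*), a sulfotransferase known from dorsoventral patterning of the eggshell and embryo, had 20.4, 19.9 and 17.6 CPM in control, 21.5, 24.8 and 22 with *U2af38* RNAi and 8.38, 9.40 and 9.25 with *SRPK* RNAi. *Duox*, the dual oxidase that releases hydrogen peroxide at epithelial surfaces, had 15.5, 15.3 and 13.6 CPM in control, 17.4, 17.2 and 21.5 with *U2af38* RNAi and 7.5, 8.06 and 6.39 with *SRPK* RNAi. For both genes the *U2af38* RNAi libraries lay slightly above control, by 1.18 and 1.27 times in the means. *Duox* kept 49.5% in *SRPK* RNAi, close to the limit, and it left the rule without control replicate 1, control replicate 2 or *SRPK* RNAi replicate 3.

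*Try29F*, a protease of the trypsin family, had 6.10, 5.98 and 6.90 CPM in control, 6.43, 6.64 and 6.62 with *U2af38* RNAi and 3.14, 3.63 and 2.58 with *SRPK* RNAi. *Hao*, a hydroxyacid oxidase, had 6.58, 6.03 and 6.83 CPM in control, 10.1, 9.10 and 8.46 with *U2af38* RNAi and 3.06, 2.25 and 2.74 with *SRPK* RNAi. *U2af38* RNAi libraries thus overlapped control for *Try29F* and did not for *Hao*. *Cyp4s3*, a cytochrome P450, had 1.56, 2.20 and 2.90 CPM in control, 13.7, 12.6 and 12.6 with *U2af38* RNAi and 0.421, 0.950 and 1.07 with *SRPK* RNAi, and was the only X-linked member. *Spn85F*, of the serpin family of protease inhibitors, had 2.03, 1.82 and 2.50 CPM in control, 6.65, 6.64 and 6.62 with *U2af38* RNAi and 0.613, 0.563 and 0.675 with *SRPK* RNAi. *Cyp4s3* and *Spn85F* were near the lower limit of control expression, and both left the rule without control replicate 3.

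A few further named genes are known from muscle and cuticle. *TpnC4* codes for a troponin C, a calcium sensor of muscle fibres. It had 4.03, 5.93 and 5.60 CPM in control, 9.95, 8.04 and 7.09 with *U2af38* RNAi and 1.53, 0.563 and 0.834 with *SRPK* RNAi, with 18.8% left. Muscle genes listed as markers of the contractile sheath around the testis were mostly lower in *SRPK* RNAi. The libraries do not show which muscle their RNA came from. Of 12 muscle genes listed, none of them a member, 11 were called lower by edgeR and 0 higher. Over all tested genes 21.1% were called lower and 20.3% higher. The median log2 fold change of the 12 was -0.66 against 0.01 over all tested genes. The largest falls were in *Mf* (-1.02, adjusted p = 2.09e-04 by edgeR's quasi-likelihood test) and *Act57B* (-0.79, 0.00614). In *U2af38* RNAi 5 of the 12 were called lower and 1 higher, where 37.5% of all tested genes were lower and 44.7% higher. The summed level of the 12 on library-size CPM was 1470 to 2000 in control, 2150 to 2460 in *U2af38* RNAi and 1230 to 1500 in *SRPK* RNAi. The calls were made with TMM factors, so the sums and the calls are on different scales. On library-size CPM the median tested gene had a log2 ratio over control of 0.71 in *U2af38* RNAi. *TpnC4* itself was at -2.54 on the same log2 scale, and the part of muscle content in its level was not tested.

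*sha* (*shavenoid*), which is needed for the actin-rich hairs of the epidermis, had 6.71, 6.84 and 5.63 CPM in control, 11.3, 12.2 and 18.8 with *U2af38* RNAi and 1.88, 1.58 and 1.95 with *SRPK* RNAi. *Osi23*, of the insect Osiris family of secretory and membrane proteins, had 2.64, 2.10 and 3.40 CPM in control, 7.14, 7.22 and 8.51 with *U2af38* RNAi and 0.268, 0.387 and 0.437 with *SRPK* RNAi. *Osi23* kept 13.4% of control, the lowest share of any named member. *Neu2* had 3.90, 3.97 and 3.83 CPM in control, 17.9, 16.9 and 20.2 with *U2af38* RNAi and 1.38, 0.950 and 0.556 with *SRPK* RNAi. *Sgp* had 3.64, 2.44 and 3.40 CPM in control, 5.14, 5.34 and 6.78 with *U2af38* RNAi and 1.57, 1.41 and 1.59 with *SRPK* RNAi. *Neu2* was almost constant over the control libraries and 4.70 times higher in *U2af38* RNAi, while *Sgp* kept 48.2% in *SRPK* RNAi and left the rule without control replicate 1 or control replicate 3.

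The remaining 25 members are known by CG numbers only, and no role is given for them. The lowest shares of all were among these. *CG9294* was at 3.72, 1.53 and 0.80 CPM in control, 7.08, 6.50 and 7.77 with *U2af38* RNAi and 0.0766, 0.211 and 0 with *SRPK* RNAi, from 2, 6 and 0 fragments. Its control libraries were spread widely, and the gene no longer met the minimum without control replicate 1. *CG7402* had 3.16, 3.30 and 2.93 CPM in control, 6.76, 6.55 and 8.61 with *U2af38* RNAi and 0.268, 0.0704 and 0.318 with *SRPK* RNAi, from 7, 2 and 8 fragments. At these counts the *SRPK* RNAi levels of both genes lay close to the 3-fragment level of the libraries, and their size is imprecise. *CG9593* was better covered, with 7.23, 7.08 and 6.70 CPM in control, 11.2, 9.29 and 13.4 with *U2af38* RNAi and 1.15, 1.34 and 1.63 with *SRPK* RNAi, and kept 19.6%. *CG44174* had 2.86, 3.83 and 2.57 CPM in control, 6.33, 5.92 and 6.78 with *U2af38* RNAi and 0.651, 1.02 and 1.11 with *SRPK* RNAi.

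The 6 most abundant of the CG genes kept 35.8% (*CG6996*) to 46.3% of control in *SRPK* RNAi. *CG10175* had 27.8, 25.7 and 23.8 CPM in control, 55.8, 51.9 and 56.0 with *U2af38* RNAi and 13.5, 12.6 and 8.26 with *SRPK* RNAi. *CG18469*, an intronless gene that lies within *mbl* on the opposite strand, had 23.7, 25.8 and 23.7 CPM in control, 63.6, 62.8 and 62.3 with *U2af38* RNAi and 11.9, 10 and 12 with *SRPK* RNAi. Both rose above all control libraries in *U2af38* RNAi and kept 44.4% and 46.3% in *SRPK* RNAi. *CG12439* had 22.6, 21.2 and 19.4 CPM in control, 23.5, 21.6 and 21 with *U2af38* RNAi and 9.34, 7.74 and 8.97 with *SRPK* RNAi, so that *U2af38* RNAi overlapped control. *CG9098* had 11.6, 11.7 and 16.5 CPM in control, 24.2, 20.4 and 25.4 with *U2af38* RNAi and 5.93, 5.53 and 6.99 with *SRPK* RNAi, and left the rule without control replicate 3, its highest control library. *CG8837* had 17.7, 8.04 and 10.4 CPM in control, 12.5, 18.4 and 20.4 with *U2af38* RNAi and 6.55, 4.65 and 4.53 with *SRPK* RNAi. Its control replicate 1 stood above the other control libraries, and without it the gene left the rule. *CG6996* had 8.87, 8.27 and 10.1 CPM in control, 11, 11.2 and 10.5 with *U2af38* RNAi and 3.56, 3.17 and 3.02 with *SRPK* RNAi, and stayed in the rule whichever library was left out.

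The other CG members ranged over 2.03 to 7.63 CPM in control, 3.07 to 17.9 in *U2af38* RNAi and 0.728 to 2.74 in *SRPK* RNAi, with 31.9% to 49.5% left. They were *CG5023*, *CG13067*, *CG9555*, *CG34354*, *CG31233*, *CG34136*, *CG15293*, *CG11912*, *CG5644*, *CG5860*, *CG11317*, *CG18480*, *CG11437*, *CG43394* and *CG10232*. Within this group *CG5023* had the largest *U2af38* RNAi ratio of the 45, at 8.78 times control. Its control libraries had 2.08, 2.15 and 1.87 CPM and its *U2af38* RNAi libraries 20.3, 15.7 and 17.5, and *SRPK* RNAi left 0.995, 1.02 and 0.556 CPM.

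The values next to each limit were close together. Mean control CPM was 2.02 for *CG9294*, 2.03 for *CG5023* and 2.06 for *CG13067* just inside, and 1.97 for *Lsm11*, 1.89 for *CG17242* and 1.80 for *CG7408* just outside. In *SRPK* RNAi, *Hrb98DE*, *CG5860* and *Duox* kept 49.6%, 49.5% and 49.5% inside, and *GstE14*, *CG5177* and *CG18599* kept 50.2%, 50.4% and 51.0% outside. In *U2af38* RNAi, *side-VII*, *Hrb98DE* and *CG11437* were at 1.01, 1.03 and 1.04 times control inside, and *CG31288*, *CG14694* and *mnd* at 0.953, 0.911 and 0.902 outside. Genes on either side of a limit thus had nearly the same values.

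In *U2af38* RNAi the 45 genes were far from alike. The ratio of means to control had a median of 1.90 and ran from 1.01 to 8.78, with 17 genes under 1.5, 7 from 1.5 to 2, 13 from 2 to 4 and 8 at 4 or more. The 8 at the top were *CG5023*, *Cyp4s3*, *mAChR-B*, *CG5644*, *pHCl-2*, *Neu2*, *CG34354* and *CG9555*. All *U2af38* RNAi libraries lay above all control libraries for 34 of the 45, a pattern that 64.7% of all tested genes had on library-size CPM.

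Whether a gene of the 45 was below control in *U2af38* RNAi as well depended on the scaling. With TMM factors, which set the bulk of the genes near no change, 28 of the 45 had a *U2af38* RNAi mean at or above control and 17 a mean below it. By edgeR's quasi-likelihood test on that scale, 20 were called higher in *U2af38* RNAi, 8 lower and 17 neither, where 44.7% of all tested genes were called higher and 37.5% lower. The choice used these *U2af38* RNAi values too, so these calls describe the effect of the scaling and support nothing about the genes. The 8 called lower were *CG6996*, *CG11437*, *CG12439*, *side-VII*, *pip*, *Try29F*, *Duox* and *Hrb98DE*, with log2 fold changes from -0.62 for *side-VII* to -0.29 for *Duox*. The 45 are therefore genes at or below 50% in *SRPK* RNAi and not below control in *U2af38* RNAi on library-size CPM, and 25 of them were not called higher in *U2af38* RNAi. In *SRPK* RNAi the scaling mattered less, and with TMM factors all 45 kept between 4.41% and 45.7%.

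**Figure D4:**
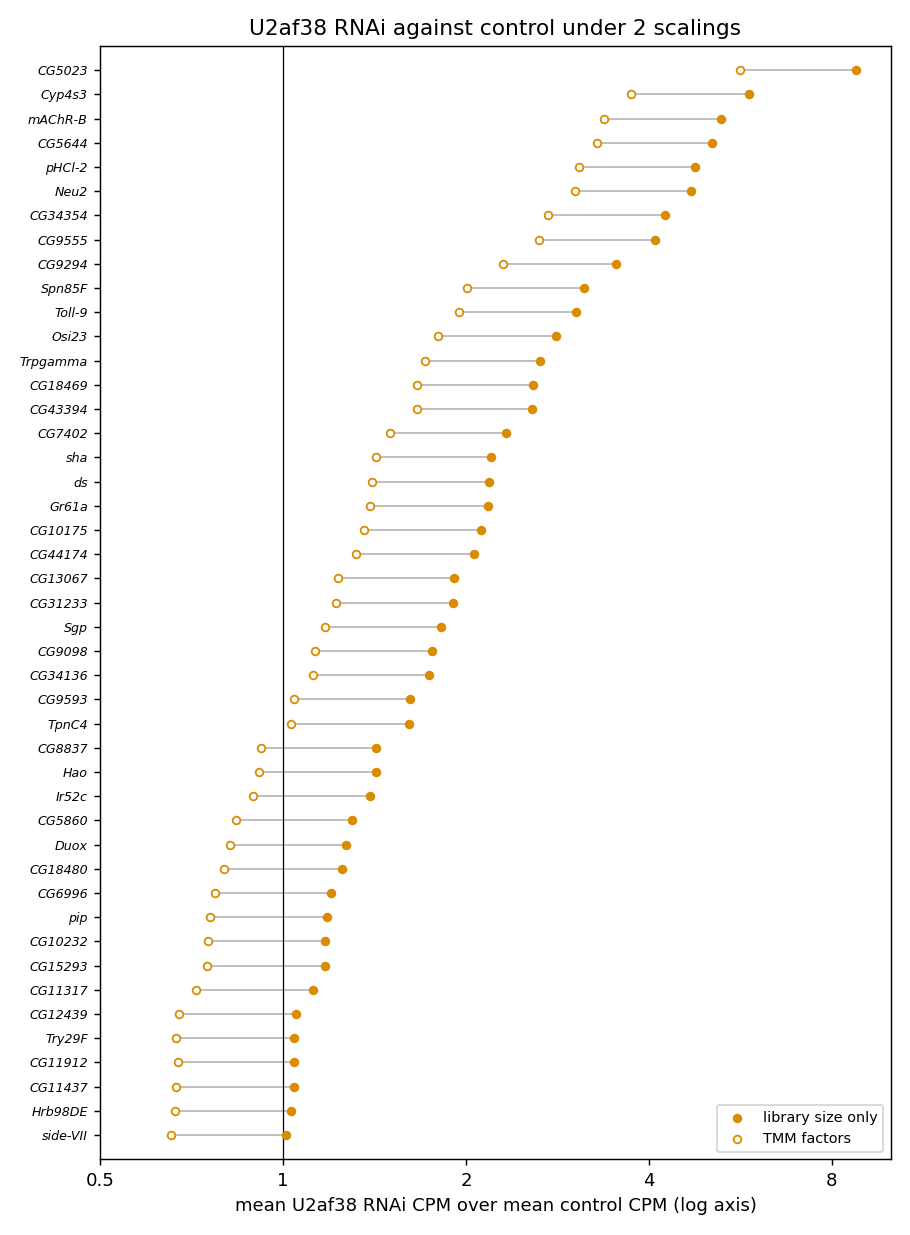
Mean *U2af38* RNAi CPM over mean control CPM of each of the 45 genes on a log axis, with filled points for scaling by library size alone and open points for TMM factors, and a line at equality. Every filled point lies at 1.01 or above, while the open points of 17 genes lie below 1, down to 0.653 for *side-VII*.

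Gene structure was not used by the choice. Of the 45 genes 7 had no intron (15.6%), where 13% of the 9516 eligible genes had none, and both sets had a median of 3 introns. The median longest intron was 479 bp in the 45 and 186 bp in the eligible genes. It was 146 bp in the 4815 eligible genes with less than 30 CPM in control, a band set after seeing the data to leave out abundant genes. The band was not matched to the members in level, with a median control mean of 10.2 CPM against 5.30, and *Hrb98DE* lay outside it. A longest intron under 100 bp, intronless genes not included, was found in 8 of the 45 (17.8%) and in 29.7% of the eligible genes, and one over 10 kb in 4 (8.89%) and 8.77%. The 4 were *CG34354*, *ds*, *mAChR-B* and *pip*. Median exon length was 1830 bp against 1980 bp. These shares come with no test, and the small number of genes limits them.

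By chromosome arm, 15 of the genes lay on 3R (33.3%, against 24.6% of the eligible genes), 14 on 2L (31.1%, 19.4%), 9 on 3L (20%, 19.3%) and 6 on 2R (13.3%, 20.4%), and 1 on X (2.22%, 16.3%). They did not lie in a block. The closest were *CG9555* and *Try29F*, 4.90 kb apart on 2L, followed by *Try29F* and *CG12439*, 77.3 kb apart, and no other neighbouring members lay within 100 kb of each other.

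Other genes overlapped 18 of the 45, and 6 lay wholly within another gene, always on its opposite strand. Counting was strand-specific, and exons on the same strand were shared in 1 case only, *Try29F* with *CG18661*, whose shared fragments were not counted for either gene. *CG18661* had 13.4, 11.1 and 10.7 CPM in control and 12.9, 12.6 and 10.7 in *SRPK* RNAi, and did not pass the edgeR test there (adjusted p = 0.642, quasi-likelihood with Benjamini-Hochberg adjustment).

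Exons on the opposite strand were shared by 8 of the genes. *CG34354*, at 1.86, 2.20 and 2.43 CPM in control and 0.995, 0.810 and 0.556 in *SRPK* RNAi, lies opposite *asRNA:CR45041*. This antisense RNA had 0, 0 and 1 fragments in control, 11, 12 and 7 with *U2af38* RNAi and 61, 45 and 54 with *SRPK* RNAi, the last being 2.34, 1.58 and 2.14 CPM, and was called higher in *SRPK* RNAi (adjusted p = 3.76e-06, edgeR's quasi-likelihood test). It was thus near the limit of detection in control and clearly counted in *SRPK* RNAi, where its opposite gene was lower. In *U2af38* RNAi the antisense RNA was also called higher (log2 fold change 4.22, adjusted p = 1.67e-04 by the same edgeR test). There *CG34354* was above control, at 7.19, 9.24 and 11.2 CPM. A link between the antisense RNA and *CG34354* was not tested. Of the other opposite genes, *CG5359* across from *Spn85F* was called lower (log2 fold change -0.44, adjusted p = 0.00467 by the same edgeR test), and *fal* across from *pip* (0.19, 0.00492) and *Srp68* across from *CG5644* (0.45, 2.79e-04) were called higher. *asRNA:CR45891*, *lncRNA:CR44988*, *Rab3-GEF* and *asRNA:CR32224* did not pass that test, and *lncRNA:CR46078* had too few counts to be tested.

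The nearest tested genes on each side, 90 in all and none of them members, were read as a measure that the choice did not use. In *SRPK* RNAi 16 were called lower (17.8%, against 21.1% of all tested genes) and 19 higher (21.1%, against 20.3%), by edgeR's quasi-likelihood test at an adjusted p of 0.05. Their median log2 fold change was -0.03, and that of all tested genes 0.01. The shares were near those of the whole table. The lowest log2 fold changes among those called were those of *CG16775* beside *CG7402* (-2.35), *lncRNA:CR43719* beside *CG11912* (-2.07) and *in* beside *Toll-9* (-1.49). The highest were those of *asRNA:CR45041*, described above, *nau* beside *CG10232* (means of 0.0733 CPM in control and 0.518 in *SRPK* RNAi) and *stol* beside *CG18480* (1.71). Calls among the neighbours thus went in both directions.

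**Figure D5:**
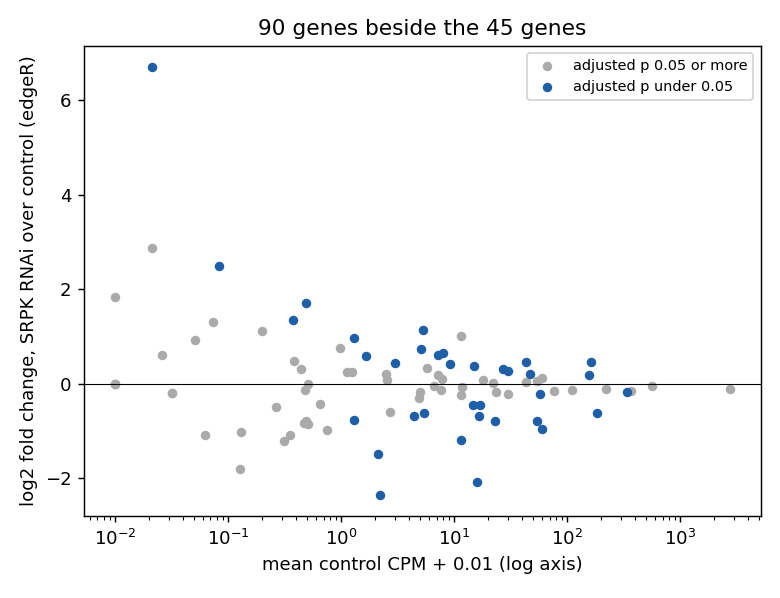
Log2 fold change in *SRPK* RNAi over control by edgeR against mean control CPM plus 0.01 on a log axis, for the 90 nearest tested genes on either side of the 45 genes, with called genes in colour. Of the 90, 16 were called lower and 19 higher, with a median of -0.03.

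Markers of cell types the testis preparation could hold, and genes of other families and functions, were listed in 19 lists. Of 195 listed genes 188 were matched and 0 were members. In *SRPK* RNAi, 44 of the 171 that were tested were called lower by edgeR and 33 higher, where 21.1% of all tested genes were lower and 20.3% higher. Most lists are short, so their counts are read against those shares only as a description, and values in parentheses below are log2 fold changes in *SRPK* RNAi. Calls and fold changes use TMM factors. Summed levels are library-size CPM, on which most genes lay above control in *U2af38* RNAi. Post-meiotic spermatid genes were called lower in 7 of 12 and higher in 1, and *d-cup* (log2 fold change -0.71) was the lowest, followed by *schuy* (-0.28). In *U2af38* RNAi 11 of these 12 were called lower with TMM factors, where 37.5% of all tested genes were, with summed levels of 3060 to 3130 CPM in control, 2240 to 2260 in *U2af38* RNAi and 2810 to 3000 in *SRPK* RNAi. Of 13 spermatocyte genes 1 was lower and 5 higher in *SRPK* RNAi, with *mia* (0.74) and *comr* (0.38) higher, and their sum was 1880 to 1950 CPM in control and 2020 to 2270 in *SRPK* RNAi. Of 7 tested stem cell and spermatogonial genes 0 were lower and 4 higher, with *vas* (0.54) and *chinmo* (0.46) changing the most.

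Among somatic cells of the testis, 3 of 5 hub genes were lower, *upd1* (-1.66) and *hh* (-0.51) among them, and 1 was higher. Of 10 cyst cell genes 2 were lower, *so* (-0.91) among them, and 3 higher, with *Egfr* at 0.54. Seminal fluid genes of the accessory gland varied widely between libraries of a genotype, and their sum ran from 10.5 to 480 CPM in control, 18.7 to 306 in *U2af38* RNAi and 15.3 to 1120 in *SRPK* RNAi, and 0 of 11 tested were called in *SRPK* RNAi. Fat body sums on library-size CPM were close within a genotype, at 406 to 443 in control and 353 to 377 in *SRPK* RNAi. They were 761 to 789 in *U2af38* RNAi, where the median tested gene was also above control on this scale (log2 ratio 0.71). In *SRPK* RNAi fat body genes were lower in 3 and higher in 1 of 10, with *Lsp2* at -1.44 and *AkhR* at 1.79. Hemocyte genes were lower in 2 and higher in 2 of 7, with *Pxn* at 1.42 and *Hml* at 1.10. Gut enzymes were near 0 in control, with a sum of at most 0.633 CPM. The part of these cell types in the levels of the 45 genes was not tested.

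Among the lists of gene families and functions, the direction of the calls differed. SR proteins and RS-domain splicing factors were higher in 4 of 11, with *B52* at 0.51 and *tra2* at 0.40, and lower in 1. Detoxification genes, a list of cytochrome P450 and glutathione S-transferase genes, were lower in 6 of 14, *Cyp4p1* by the most (-0.90), and higher in 1, *Cyp6a2* (0.88). Antimicrobial and immune genes were lower in 3 of 13 and higher in 0, with *DptB* at -1.62 and *AttB* at -0.74. Of 8 circadian clock genes 2 were lower, *Pdp1* (-0.29) and *cry* (-0.48), and 2 higher, *Clk* (1.65) and *per* (0.61). *Clk*, a transcription factor of the clock, rose from 116 to 396 CPM in *SRPK* RNAi and to 445 in *U2af38* RNAi. These values stand beside those of the 45 genes and were not used to choose them.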

How the data were processed

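Per the paper's methods and the file header, the authors aligned paired reads to dm6 with STAR 2.7.1a and deposited raw counts per gene and lane from featureCounts 1.6.2 (FlyBase 6.37, paired fragments, reverse-stranded). Fragments with several alignments, or shared by exons of several genes on a strand, were not counted at the settings in the header. Here lanes were summed (0 columns unmatched), and CPM was the count per 1000000 counted fragments. edgeR 4.0.16 (filterByExpr, TMM, quasi-likelihood test, Benjamini-Hochberg adjustment, threshold 0.05, 9 libraries in 1 model, no block) ran in R 4.3.3 and was tested on simulated data. Standard errors are the absolute log2 fold change over the square root of F. Names, types and introns came from Ensembl release 115. The floor of 3 fragments covers counting error only.

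The members and lists were chosen with earlier results of these data known. Values per library are printed for the 12 most abundant members, the 10 with the lowest *SRPK* RNAi share, all named members, *SRPK*, *U2af38* and, as means, genes beside each limit, and the 2 largest called changes are named for lists described singly. Members printed with per-library values for another reason, and the partners, hnRNP relatives and neighbours named, were chosen after their values were seen. Alternatives were DESeq2 1.42.0, other scalings, filters and limits, a replicate block, single lanes and each library left out. The p-values set the difference between genotypes against the spread between these samples, with 3 libraries per genotype.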

Additional observations from a re-analysis of the deposited data

How the results depend on the processing

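The number of genes meeting the conditions was 45, and 38 with TMM factors, 41 with DESeq2 size factors, 54 with *U2af38* RNAi at 0.8 of control or more, and 50 and 46 on single lanes. It rose to 75 with a minimum control CPM of 1 and fell to 24 with a minimum of 5 and, separately, to 24 with *SRPK* RNAi at 0.4 of control or less, by the construction of those limits. With each library left out it ranged from 42 to 52, and 28 of the 45 remained in every such case. TMM factors kept 28 of the 45 and added 10. Over 450 alternative log2 ratios of members in *SRPK* RNAi over control, 0 reversed, 8 moved by more than 1 SD, and the highest was -0.72 (*Sgp*, lane 2 alone). The members were chosen for low *SRPK* RNAi means, and for all 45 every *SRPK* RNAi library lay below every control library. Leaving a library out could therefore not reverse a ratio, and nothing is read from the 0. The *U2af38* RNAi ratios of members are not among these. With TMM factors only 28 of the 45 had a *U2af38* RNAi mean at or above control.

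Genes called in *SRPK* RNAi numbered 6187, against 6003 with DESeq2, 6104 without the filter, 6599 with library size only and 5254 to 6178 with a library left out. In *U2af38* RNAi they numbered 12280, against 12497, 12870, 12985 and 12001 to 12559. Scaling by library size moved the split from 3155 lower and 3032 higher to 2263 and 4336 in *SRPK* RNAi, and from 5606 and 6674 to 3451 and 9534 in *U2af38* RNAi.

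The replicate numbers were not shown to pair samples. Deviations of same-numbered libraries correlated at -0.403, -0.299 and 0.365 for control and *SRPK* RNAi, at 0.295, 0.281 and -0.117 for control and *U2af38* RNAi, and at -0.465, -0.194 and -0.172 for the knockdowns. With the replicate block, 6331 genes were called in *SRPK* RNAi and 12213 in *U2af38* RNAi. Of the neighbouring genes 35 were called, 39 when protein-coding neighbours were taken, and 34 with the block, an alternative chosen after seeing the data. Members with few fragments in *SRPK* RNAi are limited by depth.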

Other observations

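Outside the protein-coding genes, or on the chromosomes left out, 28 further genes met the same limits on levels, of which 26 were annotated as noncoding RNA genes and 2 as pseudogenes. None of them lay on chromosomes 4 and Y. How many genes of these types met the control limit was not counted, so no share is given for the 28. The most abundant was *asRNA:CR45798*, an antisense RNA with 8.23, 7.32 and 7.5 CPM in control, 7.14, 8.28 and 8.40 with *U2af38* RNAi and 2.79, 3.13 and 4.17 with *SRPK* RNAi. *lncRNA:CR45590* kept the smallest share, 20.2%, with 2.73, 3.59 and 4.53 CPM in control, 5.03, 5.05 and 6.15 with *U2af38* RNAi and 0.766, 0.950 and 0.476 with *SRPK* RNAi. *lncRNA:CR45558* had the largest *U2af38* RNAi ratio, 5.74 times control, with 2.55, 1.58 and 2.03 CPM in control, 11.4, 10.9 and 13.1 with *U2af38* RNAi and 1.68, 0.669 and 0.715 with *SRPK* RNAi. In each of these 3 examples the *SRPK* RNAi and control libraries showed what the limits require of the means, except that the highest *SRPK* RNAi library of *lncRNA:CR45558* overlapped its lowest control library. The genes were found with the limits and are given as values, with no test.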
